A study of Drosophila melanogaster with 24 samples.

Results

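The genes described are the 6 small heat shock genes of cytological interval 67B on chromosome arm 3L of Drosophila melanogaster, Hsp22, Hsp23, Hsp26, Hsp27, Hsp67Ba and Hsp67Bc. They were chosen by name. A gene was given an RNA locus of the deposited tables when the 2 shared at least 50% of their joint span, and this placed 5 of the 6 genes among 10253 RNA loci. Hsp26 reached 47.8% and is described apart. Open chromatin regions were taken when they overlapped a gene or lay within 2 kb of one, which gave 9 of 19738 regions.

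The RNA libraries were made from whole first-instar larvae. All 4 RNA genotypes lacked the endogenous canonical histone genes and carried in their place a transgene array of 12 copies. Canonical K9R larvae (H3.2-K9R) carried an array in which lysine 9 of histone H3 is arginine. H3.3 K9R larvae (H3.3-K9R_H3.2-HWT) carried the wild-type array, were null for H3.3A and had K9R in H3.3B, the pair of genes for the replacement variant H3.3. Combined K9R larvae (H3.3-K9R_H3.2-K9R) carried the H3.3 changes on the K9R array, and control larvae (HWT) carried only the wild-type array. FAIRE, which recovers DNA fragments not bound in nucleosomes, was done on wing imaginal discs, taken from wandering larvae at the third instar, of H3.3A-null, H3.3B-K9R, the double mutant (H3.3-K9R) and yw wild type (WT) flies. There were 3 libraries per group, and the labels do not say that these came from separate animals or crosses, so p-values cover the spread between these libraries and no more, which may be technical.

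Small heat shock proteins are chaperones built around an alpha-crystallin domain. They form oligomers that hold unfolded proteins until ATP-driven chaperones such as Hsp70 refold them. In Drosophila the 67B genes are induced together by heat through heat shock factor, and at set stages also without heat, in part through the steroid hormone ecdysone. Hsp22 protein resides in mitochondria, Hsp27 in the nucleus, Hsp23 and Hsp26 in the cytosol. Hsp67Bc, a counterpart of human HSPB8, works with the co-chaperone Starvin in autophagy of damaged proteins. The deposited tables give 1 mean count per locus over all RNA libraries and, per mutant, a log2 fold change over HWT with its standard error (SE). They hold no value of a single library, so the level in each library cannot be shown. Below, a call is an adjusted p-value under 0.05 in the authors' DESeq2 Wald test, and a percentage of HWT is 2 raised to the deposited fold change. The RNA fold changes appear shrunk towards 0, so these percentages and their intervals may lie too near to HWT.

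In the map order of dm6, Hsp67Bc (3L, 9371511 to 9372497) and Hsp23 (3L, 9381882 to 9382765) each had a locus with the gene's own ends. Hsp22 lay in a locus at 9372722 to 9374964 that also holds CG4456, known as Hsp67Bb. The Hsp67Ba locus at 9377802 to 9381119 also holds the antisense RNA gene asRNA:CR43481, and the Hsp27 locus at 9384063 to 9386719 also holds the pseudogenes CR43483 and CR43482. Strand was not given, so the reads of each of these 3 small heat shock genes cannot be told apart from those of its neighbours. Hsp26 (3L, 9376418 to 9377427) shared a locus at 9375315 to 9377427 with CG4461, another gene of the alpha-crystallin family.

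Per kb of locus, the level was highest for Hsp23, with a mean normalized count of 294 per kb, above 92.7% of all RNA loci. Hsp27 followed at 167 per kb. Hsp22 at 91.5, Hsp67Bc at 89.8 and the Hsp26 locus at 85.5 per kb had like levels, and Hsp67Ba stood far below at 3.33 per kb. No error of these means was used here, so whether neighbours in this order differ was not tested. As plain mean counts the values were 260 for Hsp23, 444 for Hsp27, 205 for Hsp22, 88.6 for Hsp67Bc, 181 for the Hsp26 locus and 11.1 for Hsp67Ba. The count of Hsp67Ba was thus well under the median RNA locus, 108.

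Total counts per library were not given, so depth is unknown. Of the marker lists, muscle genes (10 loci, mean counts 4526 to 74948) and midgut enzyme genes (6 loci, 172 to 28320) were abundant in these whole larvae. The fat body list had a median mean count of 4.74 over 6 loci, with all but apolpp at 8.05 or below. In the authors' deposited tables, 5 of 6 midgut loci were called lower in combined K9R, with a median of −0.76. The count was 2 of 6 in H3.3 K9R, with a median of −0.46, and 0 of 6 in canonical K9R, with a median of −0.18, per the authors' deposited tables. Over all tested loci, the share called lower was 13.6% for combined K9R, 1.65% for H3.3 K9R and 0.505% for canonical K9R. Muscle markers had 2 of 9 tested loci called higher in combined K9R, where 11.4% of all loci were, and 0 in the single genotypes. Of the other lists, 1 of 4 tested hemocyte loci (Hml) and 1 of 2 tested fat body loci (apolpp, joined with Zyx) were called higher in H3.3 K9R, where 2.66% of all loci were. Of 3 tested cuticle loci, 1 (Lcp1) was called higher in canonical K9R, where 3.04% were. Lcp1 had a mean count of only 5.25 and an adjusted p of 0.04995, at the threshold. Lcp4, the most abundant of the list with a mean count of 150, stood at 0.02 there. The 1 tested female germline locus, which joins vas with solo and vig, was called lower in combined K9R and cannot be read as vas alone. Male germline genes (1 locus tested) and the 9 genes of wing fate had 0 called in every genotype. The part of these shifts in the small heat shock values was not tested, and fewer cells of a type and less RNA per cell cannot be told apart. All 9 wing fate genes, such as vg, nub and ap, overlapped at least 1 FAIRE region of the discs.

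In larvae with 1 form of H3 changed, small heat shock RNA was lower or did not pass the test. In larvae with both changed, Hsp22 was called higher, while Hsp27 and Hsp67Ba stayed below HWT without a call. Of the 5 matched loci, canonical K9R had 0 called higher and 1 lower, Hsp27, where 3.55% of 8123 tested loci were called, 3.04% higher and 0.505% lower. H3.3 K9R had 0 higher and 2 lower, Hsp27 and Hsp67Ba, where 4.31% of 7634 loci were called, 2.66% higher and 1.65% lower. Combined K9R had 0 lower and 1 higher, Hsp22, where 25% of 7634 loci were called, 11.4% higher and 13.6% lower. The 1 of 5 called there is near that 25%. At an unadjusted p under 0.05 the members numbered 1 of 5 in canonical K9R, where 9.65% of tested loci passed, 4 in H3.3 K9R, where 11.6% passed, and 4 in combined K9R, where 35.5% passed. The median of the 5 log2 fold changes in the authors' deposited tables was −0.46 in canonical K9R, beside −0.01 over all loci. It was −0.72 for H3.3 K9R, beside −0.01, and 0.28 for combined K9R, beside 0.00, per the authors' deposited tables. The 3 comparisons share the HWT libraries, so they are not independent of each other.

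**Figure D1:**
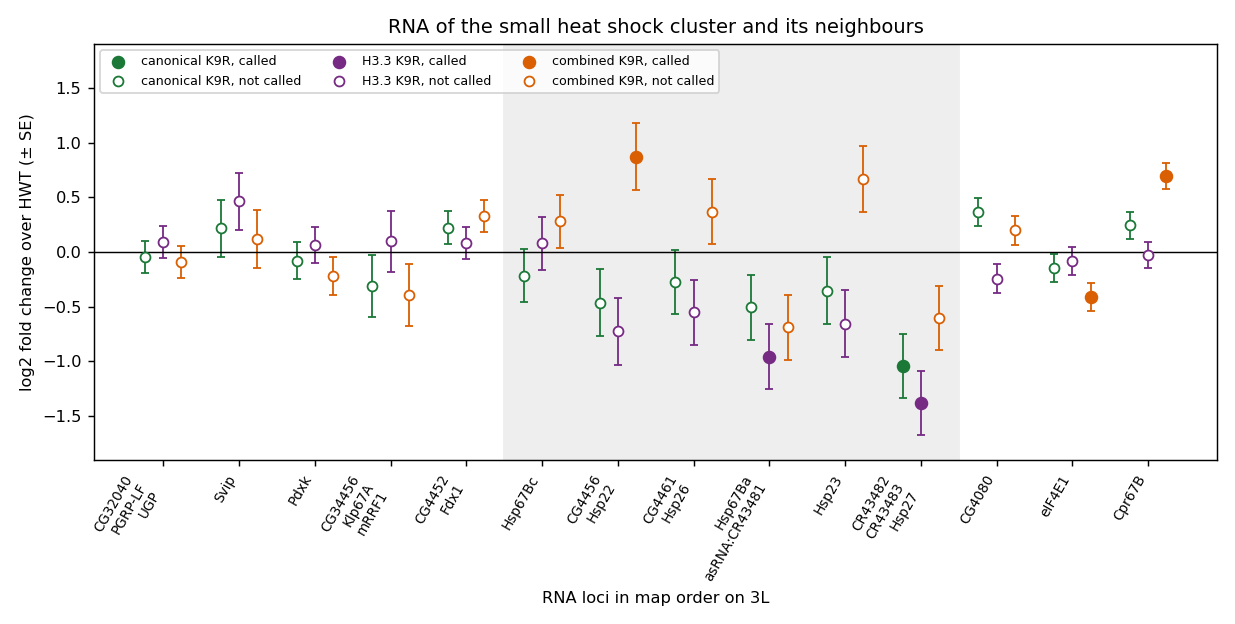
Log2 fold change over HWT (y axis, error bars 1 SE, from the authors' deposited tables) of 14 RNA loci in map order along 3L (x axis), small heat shock loci on grey, 3 mutants by colour, filled where called. In the combined genotype Hsp22, Hsp23 and the Hsp26 locus sit above 0, at 0.87, 0.67 and 0.37, while Hsp27 and Hsp67Ba sit below 0 in every genotype, at −0.51 or lower.

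Hsp27, the nuclear member, had the largest decreases of the cluster in the single genotypes. In the authors' deposited table it stood at −1.38 ± 0.29 in H3.3 K9R (SE, adjusted p = 1.5e-04), which is 38.3% of HWT with a 95% interval of 25.8% to 57.1%. In canonical K9R it stood at −1.04 ± 0.29 in the authors' deposited table (adjusted p = 0.0133), 48.6% of HWT with an interval of 32.7% to 72.4%. Combined K9R gave −0.60 ± 0.29 in the authors' deposited table (adjusted p = 0.121), 66.0% of HWT with an interval of 44.4% to 98.2%. Given this error, a fold change had to reach 0.91, 0.90 and 0.73 to be called in canonical, H3.3 and combined K9R, in that order. The canonical and H3.3 K9R values lay beyond that size and the combined value did not.

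Hsp22, the mitochondrial member, was the locus called higher in combined K9R, at 0.87 ± 0.31 in the authors' deposited table (SE, adjusted p = 0.0226). That is 183% of HWT, with a 95% interval of 121% to 276%. For H3.3 K9R the authors' deposited table gave −0.72 ± 0.31 (adjusted p = 0.230), and for canonical K9R −0.46 ± 0.31 (adjusted p = 0.729). These correspond to 60.5% and 72.6% of HWT and were not called. The share of these reads that belongs to CG4456 is unknown.

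Hsp23, a cytosolic member with the highest level per kb, had no call in any genotype. The authors' deposited tables gave 0.67 ± 0.30 for combined K9R (adjusted p = 0.0923), −0.66 ± 0.30 for H3.3 K9R (adjusted p = 0.330) and −0.35 ± 0.30 for canonical K9R (adjusted p = 0.863). As shares of HWT these are 159%, 63.5% and 78.3%. The combined value fell short of the 0.76 that its error required for a call.

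Hsp67Ba, the least abundant member, was lower in H3.3 K9R, where the authors' deposited table gave −0.96 ± 0.30 (adjusted p = 0.0311), 51.5% of HWT. It stood at −0.69 ± 0.29 in combined K9R (adjusted p = 0.0686) and at −0.51 ± 0.30 in canonical K9R (adjusted p = 0.650) in the authors' deposited tables. Since 89.2% of this locus lies under the antisense gene asRNA:CR43481, the call cannot be assigned to the coding gene.

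Hsp67Bc, the autophagy member, showed no call. The authors' deposited tables gave 0.28 ± 0.24 for combined K9R (adjusted p = 0.433), 0.08 ± 0.24 for H3.3 K9R (adjusted p = 0.975) and −0.22 ± 0.24 for canonical K9R (adjusted p = 0.918). The 95% intervals were −0.19 to 0.76 in combined, −0.39 to 0.55 in H3.3 and −0.69 to 0.26 in canonical K9R, and each holds 0. To be called, a fold change had to reach 0.61, 0.74 and 0.76, in that order. The joint locus of Hsp26 and CG4461 also had no call, the authors' deposited tables giving 0.37 ± 0.29 for combined K9R (adjusted p = 0.390), −0.55 ± 0.29 for H3.3 K9R (adjusted p = 0.472) and −0.27 ± 0.29 for canonical K9R (adjusted p = 0.912).

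Whether the genotypes differ from each other was tested per locus as the difference of the authors' deposited fold changes over the root of their summed squared errors, adjusted over all loci. The HWT libraries enter both fold changes, which makes this error too large. Combined K9R exceeded H3.3 K9R at Hsp22 by 1.59 ± 0.43 (SE, adjusted p = 0.00851), a ratio of 3.02 between the genotypes with a log2 interval of 0.75 to 2.44. At Hsp23 it exceeded H3.3 K9R by 1.32 ± 0.43 (adjusted p = 0.0436), a ratio of 2.50. These were 2 of 5 members, where 2.62% of 7634 loci differed in this direction and 5.21% in either. Hsp27 (0.78 ± 0.41, adjusted p = 0.342), Hsp67Ba (0.27 ± 0.42, adjusted p = 0.834), Hsp67Bc (0.20 ± 0.34, adjusted p = 0.847) and the Hsp26 locus (0.92 ± 0.42, adjusted p = 0.224) did not pass. With the control share of the error taken out, Hsp27 (adjusted p = 0.0439) and the Hsp26 locus (adjusted p = 0.0148) passed too. The shares of all loci given here hold for the plain error only. How many of all loci pass with the smaller error is not given, so these passes cannot be set beside a share.

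Between combined and canonical K9R, 0 of 5 members passed, where 2.23% of loci did. The differences nearest to a call were Hsp22 at 1.33 ± 0.43 (adjusted p = 0.0747) and Hsp23 at 1.02 ± 0.43 (adjusted p = 0.298). With the control share of the error taken out, Hsp22 and Hsp23 passed (adjusted p = 4.9e-04 and 0.0137), again with no share of all loci to set beside them. Between H3.3 and canonical K9R, 0 of 5 passed, where 1.61% of loci did, with differences from −0.45 for Hsp67Ba to 0.29 for Hsp67Bc and every adjusted p at 1.00 when rounded. At an unadjusted p under 0.05, 2 members differed between combined and canonical K9R, where 10.3% of loci did, and 0 between the single genotypes, where 5.91% did.

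The combined genotype was also set beside the sum of the fold changes of the single genotypes, a comparison added after values had been seen. Hsp22 stood at 0.87 in combined K9R against a sum of −1.19, a departure of 2.05 ± 0.53 (adjusted p = 0.0490). Its adjusted p lies just under the threshold. This was 1 of 5 members, where 0.21% of 7634 loci departed from the sum and 0.0393% departed upward. Hsp27 stood at −0.60 in combined K9R against a sum of −2.42, a departure of 1.82 ± 0.51 (adjusted p = 0.106). Hsp23 departed by 1.68 ± 0.53 (adjusted p = 0.254), the Hsp26 locus by 1.20 ± 0.51, Hsp67Ba by 0.77 ± 0.51 and Hsp67Bc by 0.42 ± 0.42, none of which passed. With the control share of the error taken out, Hsp27 (adjusted p = 0.00346) and Hsp23 (adjusted p = 0.0174) passed as well. The share of all loci that pass with this smaller error is not given.

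**Figure D2:**
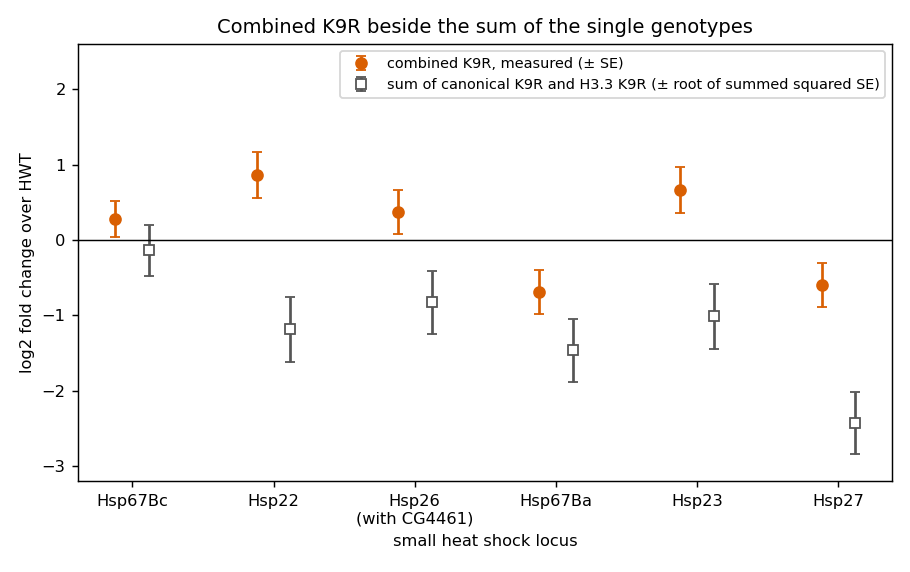
Log2 fold change over HWT (y axis) of each small heat shock locus (x axis) in combined K9R (filled, ± 1 SE) and as the sum of the single genotypes (open, ± the root of their summed squared SE). The measured value lies above the sum at all 6 loci, from 0.42 above it at Hsp67Bc to 2.05 at Hsp22, and with the plain error the departure passed its test at Hsp22 alone.

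The errors themselves set these genes apart from loci of like abundance. In the authors' deposited canonical K9R table, the SE of Hsp22 was 0.305, against a median of 0.181 over 2372 loci with a mean count within 2-fold of its own, and 99.9% of those had a lower SE. Hsp23 had 0.304 against a median of 0.170, and Hsp27 had 0.293 against 0.152 in the authors' deposited table. For these, 99.5% and 99.2% of like loci had a lower SE, and for the Hsp26 locus 99.0%. Hsp67Bc, at 0.243 against 0.224, and Hsp67Ba, at 0.296 against 0.301, had errors near those of like loci in the authors' deposited table. The error that DESeq2 reports depends in part on the spread estimated between libraries of a group. Loci of very low count also have small errors here, such as 0.07 at a mean count of 0.16. A smaller error thus need not mean less spread. The RNA errors here stop at 0.306, and those of Hsp22 and Hsp23 lie close to that ceiling. The median over loci of like count to Hsp67Ba, 0.301, lies near it too. Near the ceiling, these errors do not rank the spread. No value of a single library was used here, so which libraries spread is unknown.

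Of 5255 loci whose mean count was 100 or more, 76 (1.45%) had an SE of at least 0.29 in the authors' deposited canonical K9R table, a limit chosen after values had been seen. All 4 small heat shock loci of that abundance were among them, Hsp22, Hsp23, Hsp27 and the Hsp26 locus. So were all 6 Hsp70 copies, whose near-identical sequences make single values uncertain, and Hsp83, the fly Hsp90. The rest included cuticle protein genes such as Lcp65Ac and Cpr47Eg.

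**Figure D3:**
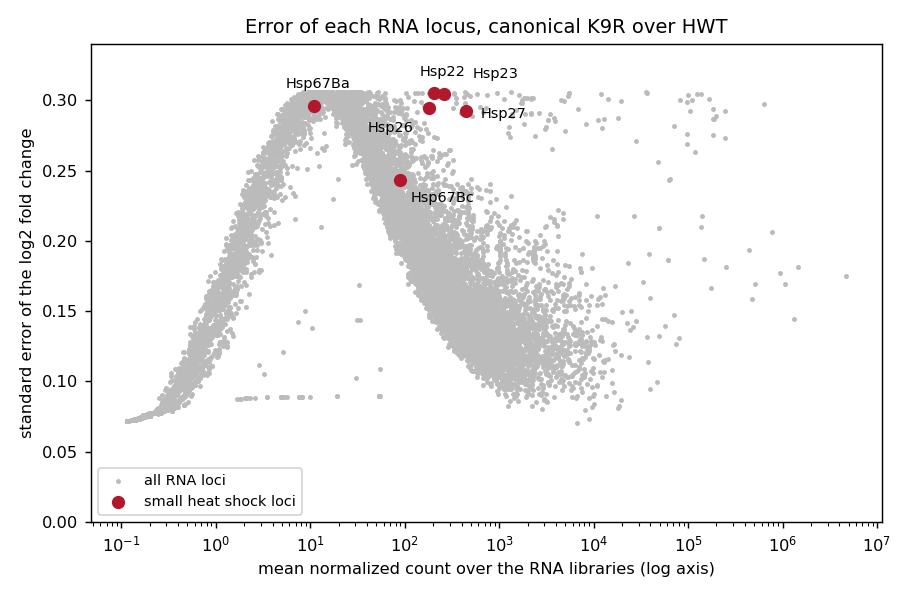
Standard error of the log2 fold change (y axis) against mean normalized count on a log axis (x axis) for all 10253 RNA loci in grey and the 6 small heat shock loci in red, canonical K9R over HWT. Hsp22, Hsp23, Hsp27 and the Hsp26 locus lie at 0.29 to 0.31, above most loci of their count, while Hsp67Bc and Hsp67Ba lie within the cloud.

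Of the 8 other loci within 20 kb of the cluster, combined K9R had 2 called, a share equal to the 25% called over all loci, and the single genotypes had 0 each. At an unadjusted p under 0.05, canonical K9R had 2 (CG4080 and Cpr67B), where 9.65% of all loci passed, and H3.3 K9R had 0, where 11.6% passed. Cpr67B, a cuticle protein gene, was higher in combined K9R, the authors' deposited table giving 0.70 ± 0.12 (adjusted p = 2.3e-07). The authors' deposited table had eIF4E1, the cap-binding translation factor, lower there, with −0.41 ± 0.13 (adjusted p = 0.00878). In H3.3 K9R, where Hsp27 and Hsp67Ba fell, the 8 neighbours ranged from −0.24 at CG4080, next to Hsp27, to 0.46 at Svip in the authors' deposited table. Their median fold changes in the authors' deposited tables were 0.08, 0.07 and 0.01 in canonical, H3.3 and combined K9R.

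Beyond the 6 genes, CG4456 lies in the Hsp22 locus. Despite its other name, Hsp67Bb, whether its product holds an alpha-crystallin domain was not checked here. Of the alpha-crystallin family, CG4461 lies in the Hsp26 locus, while l(2)efl, CG7409 and CG13133 had no locus that met the match rule. CG14207, on the X, had no call and the authors' deposited tables giving 0.11 ± 0.16 for combined, 0.14 ± 0.16 for H3.3 and 0.00 ± 0.16 for canonical K9R. Large chaperones and stress genes (19 loci, 18 tested) had 0 called for canonical K9R, 4 lower for H3.3 K9R, and 1 higher and 4 lower for combined K9R. Over all loci, 3.55% were called for canonical K9R, 1.65% lower for H3.3 K9R, and 11.4% higher and 13.6% lower for combined K9R, so the 5 of 18 called for combined K9R are near the 25% of all loci. At an unadjusted p under 0.05, canonical K9R had 3 below HWT, Hsp110, Hsc70-4 and Hsp68, where 9.65% of all loci passed in either direction. Their medians in the authors' deposited tables were −0.39, −0.21 and −0.27. The 4 called in H3.3 K9R were Hsp70 copies, among them Hsp70Bc, for which the authors' deposited table gave −1.13 ± 0.30 (adjusted p = 0.00705). These copies stood between −1.11 and −1.13, and since their sequences are near-identical, they cannot be counted as 4 separate results. The other copies, Hsp70Aa at −0.76 (adjusted p = 0.156) and Hsp70Ab at −0.79 (adjusted p = 0.141), were not called there. In combined K9R, Hsp70Aa and Hsp70Ab stood at 0.34 and 0.35 and the 4 copies at −0.27 each, all without a call. In combined K9R, where Hsp22 rose, the stress RNA lncRNA:Hsromega was higher, the authors' deposited table giving 0.38 ± 0.13 (adjusted p = 0.0229). Lower there were Hsp110 (Hsc70Cb), the exchange factor of Hsp70, at −0.88 ± 0.17, and Stip1 (Hop), which links Hsp70 to Hsp90, at −0.82 ± 0.24, in the authors' deposited table. Hsc70-4, the main constitutive Hsp70, at −0.57 ± 0.13, and Hsc70-3, the chaperone of the endoplasmic reticulum, at −0.45 ± 0.18, were lower there too per the authors' deposited table. Hsf, the gene of heat shock factor, whose locus also holds Dlip3, had no call in any genotype, with values of 0.17, −0.10 and 0.09 in combined, H3.3 and canonical K9R in the authors' deposited tables, each ± 0.14.

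The ecdysone list (20 loci, of which 20 were tested for canonical K9R and 19 for H3.3 and for combined K9R) had 1 higher and 1 lower for canonical K9R, 1 higher and 1 lower for H3.3 K9R, and 5 higher and 6 lower for combined K9R, with medians of −0.08, −0.14 and 0.08 in the authors' deposited tables. Over all loci, 3.55% were called for canonical K9R, 4.31% for H3.3 K9R and 25% for combined K9R. ImpE2, an ecdysone-inducible gene, was lower in each genotype, at −2.22 ± 0.30 in combined, −2.20 ± 0.31 in H3.3 and −1.85 ± 0.31 in canonical K9R, per the authors' deposited tables. In combined K9R the early ecdysone response gene Eip74EF was higher at 0.83 ± 0.20, and the receptor gene EcR at 0.39 ± 0.14, in the authors' deposited table. Hr4, a nuclear receptor of this cascade, was higher in combined K9R at 0.73 ± 0.09 and in H3.3 K9R at 0.37 ± 0.09, per the authors' deposited tables. The other loci called in combined K9R were Eip63E, at 0.73, and ftz-f1, at 0.38, among the higher, and Cth (Eip55E), at −0.83, ImpE1, at −0.67, Ldh (ImpL3), at −0.65, E23, at −0.54, and Eip63F-1, at −0.38, among the lower, in the authors' deposited table. Eip63E was also the locus called higher in canonical K9R, at 0.40 ± 0.13 in the authors' deposited table. The loci of EcR, Hr4, Eip63E, ftz-f1 and Eip63F-1 also hold other genes.

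Loci with the most similar set of 3 fold changes were sought among loci that match 1 gene, with mean counts from 10 upward, by Euclidean distance on the log2 scale. Nearest to Hsp22, among 6647 loci, were Hsp23 (distance 0.24), CG9312 (0.44) and Hsp70Ab (0.52). Nearest to Hsp27 were Osi6 (0.41), CG14089 (0.47) and Cpr49Ac (0.50), the first 2 of which had no adjusted p-value. Nearest to Hsp67Ba were flz (0.12), GstE8 (0.13) and Pex7 (0.13), all with mean counts under 25 in the same tables. Distances rest on 3 comparisons that share control libraries, and no test was made.

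In wing discs, accessibility at the small heat shock genes passed the test at 1 region in 1 comparison. Of the 9 FAIRE regions, 1 was called higher in H3.3B-K9R over WT, where 3.95% of 19733 regions were called higher, 2.58% lower and 6.53% in either direction. A count of 1 in 9 is too small to set apart from these shares. H3.3A-null over WT had 0 called, where 8.8% of all regions were called, 4.79% higher and 4% lower. The double mutant over WT had 0 called, where 7.92% were called, 4.71% higher and 3.21% lower. The double mutant over H3.3A-null had 0 called, where 6.5% were called, 3.71% higher and 2.79% lower. At an unadjusted p under 0.05 the regions numbered 2 in H3.3A-null, where 15.9% of all regions passed, and 2 in H3.3B-K9R, where 12.3% passed. They numbered 0 in the double mutant over WT and over H3.3A-null, where 15.4% and 11.3% passed. These discs had their own canonical histone genes and came from a later stage than the RNA, so their values are not set against the RNA values.

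The called region (3L, 9383282 to 9384307) spans the lower-coordinate end of Hsp27. For H3.3B-K9R the authors' deposited table gave 0.30 ± 0.10 (SE, adjusted p = 0.0477), 123% of WT. In H3.3A-null it stood at 0.24 ± 0.10 (adjusted p = 0.149), and in the double mutant at 0.06 ± 0.10 (adjusted p = 0.902), in the authors' deposited tables. The double mutant over H3.3A-null gave −0.18 ± 0.10 (adjusted p = 0.519) in the authors' deposited table. The second region of Hsp27, inside the gene (3L, 9384643 to 9384946), stood between −0.06 and 0.17 in the 4 authors' deposited tables.

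The region with the highest mean count spans the higher-coordinate end of Hsp67Ba (3L, 9379430 to 9380812), with a mean normalized count of 572, or 414 per kb. Most of it lies past the end of Hsp67Ba at 9379534, within the RNA locus of which 89.2% lies under asRNA:CR43481. By plain count the region exceeded 97.7% of all regions and per kb 91.7%. Its fold changes in the authors' deposited tables were 0.09 ± 0.09 in H3.3A-null, 0.19 ± 0.09 for H3.3B-K9R (adjusted p = 0.316) and 0.01 ± 0.09 for the double mutant. At the lower-coordinate end of Hsp23 (3L, 9381536 to 9381979, mean count 153) they were 0.13 ± 0.13 for H3.3A-null, 0.19 ± 0.13 for H3.3B-K9R and −0.04 ± 0.13 for the double mutant, per the authors' deposited tables. Neither region was called.

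The region that joins the ends of Hsp67Bc and Hsp22 (3L, 9372430 to 9373148, mean count 175) stood at −0.33 ± 0.12 in H3.3A-null in the authors' deposited table (adjusted p = 0.0672), 79.4% of WT. The authors' deposited tables gave −0.20 ± 0.12 for the double mutant (adjusted p = 0.472) and −0.05 ± 0.12 for H3.3B-K9R (adjusted p = 0.975). The other region of Hsp22 (3L, 9373525 to 9373986) stood at 0.24 ± 0.15 in H3.3A-null in the authors' deposited table (adjusted p = 0.491). At the lower-coordinate end of Hsp67Ba, a region at 9377468 to 9377887 stood at −0.19 ± 0.14 in H3.3A-null, −0.20 ± 0.14 in H3.3B-K9R and −0.11 ± 0.14 in the double mutant, per the authors' deposited tables. No region overlapped Hsp26 itself. The remaining regions, inside Hsp67Ba (3L, 9377968 to 9378720) and 291 bases below Hsp67Bc (3L, 9371072 to 9371220), stood between −0.16 and 0.16 in the authors' deposited tables.

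**Figure D4:**
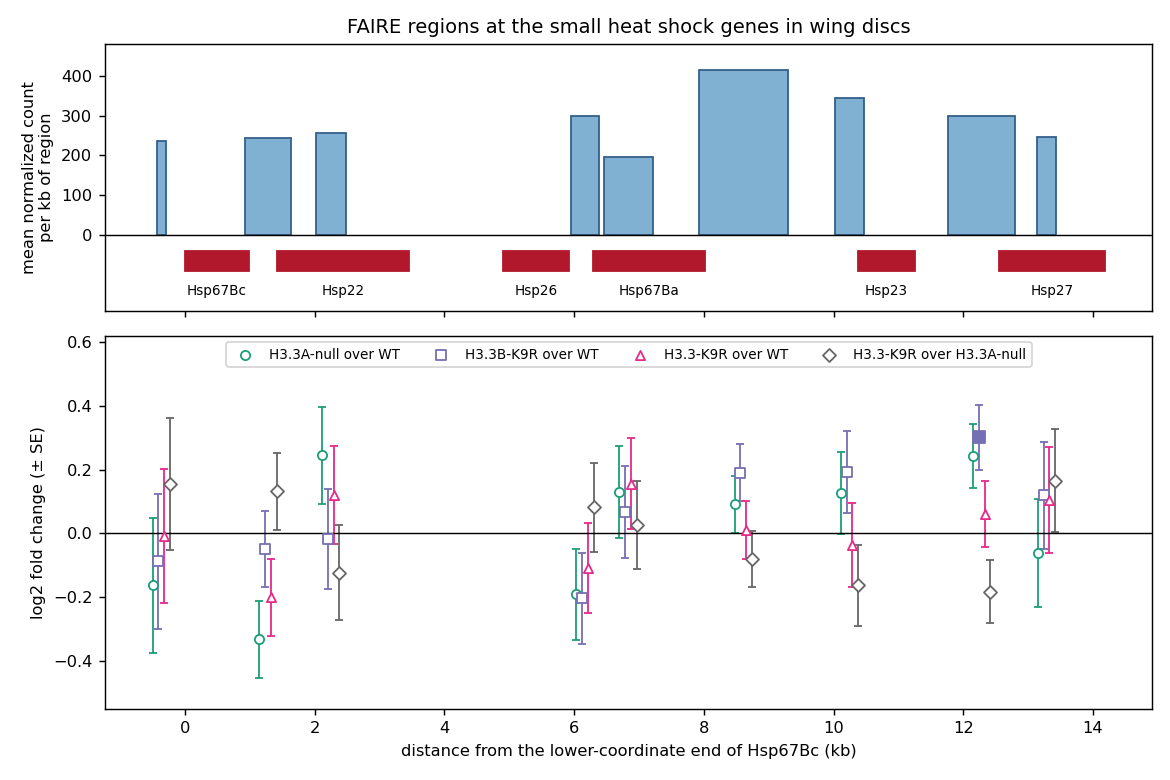
FAIRE regions at the small heat shock genes by distance from the lower-coordinate end of Hsp67Bc (x axis, kb): top, mean normalized count per kb of region over all disc libraries, with genes in red; bottom, log2 fold change (± 1 SE) from the authors' deposited tables, filled where called. The 1 filled point is the H3.3B-K9R value, 0.30, at the lower-coordinate end of Hsp27, and all others lie between −0.33 and 0.24.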

How the data were processed

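RNA (whole larvae) and FAIRE (wing discs) tables of the authors' own DESeq2 comparisons were used, 3 for RNA and 4 for FAIRE, with 3 libraries per group. Per the submitters' processing notes, the tools were DESeq2, MACS2, SAMtools 1.5, Bowtie2 2.3.2, Cufflinks 2.1.1, bedtools 2.2.25.0 and TopHat2 2.1.1, with build dm6. The step each tool served, how reads were counted and whether strand was used were not given in the sources read. Per the file headers, each table holds a mean normalized count (a signal over all libraries of the assay, counts divided by size factors), a log2 fold change with its error, and a Wald statistic, a score. Each p-value, plain and adjusted, is the authors' own. The deposited errors stop at 0.306 in RNA and 0.267 in FAIRE, as happens when fold changes are shrunk towards 0. RNA loci of very low count also have small errors, such as 0.07 at a mean count of 0.16, where unshrunk errors would be large. The RNA fold changes thus appear shrunk, though the labels do not state it. Fold changes, percentages of HWT, their intervals and sums of fold changes may be understated. Since the FAIRE errors also stop at a ceiling, FAIRE fold changes and percentages of WT may be understated too. Missing adjusted p-values stayed missing.

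No column held a single library, so no refit, depth or replicate spread could be had. Gene names and ends came from the Release 6 RefSeq table, the same assembly as dm6. RNA starts were shifted to 1-based positions, and FAIRE positions are as in the files. Differences between mutants were tested two-sided with a normal approximation to the ratio of difference to error, with Benjamini-Hochberg adjustment over all loci tested in the tables compared (Python 3.11.15, scipy 1.17.1, pandas 2.3.3). The genes, lists and tests were chosen with earlier results of these data known. All 6 genes, every region within 2 kb, the other listed alpha-crystallin genes (with CG4456, whose domain was not checked) and called members of the lists were named, and 3 loci of like pattern per called member. Alternatives changed the threshold, the adjustment, the centring, the match rule, the FAIRE window and the error of differences.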

Additional observations from a re-analysis of the deposited data

Results flagged for a closer look

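Combined K9R and H3.3 K9R, each set over HWT, differed at Hsp22, which was higher in combined K9R by 1.59 on the log2 scale (adjusted p = 0.00851). They also differed at Hsp23, higher in combined K9R by 1.32 (adjusted p = 0.0436). Both values compare these mutants only, and not the effect of canonical K9R with and without the H3.3 changes. That comparison is the departure of the combined genotype from the sum of the single genotypes, which was 2.05 at Hsp22 (adjusted p = 0.0490) and did not pass at Hsp23, at 1.68 (adjusted p = 0.254). It was added after values had been seen.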

How the results depend on the processing

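No paired analysis was possible because the tables hold no column per library, and for the same reason leaving out a replicate was not run. At an adjusted p threshold of 0.01, the members called lower in canonical K9R numbered 0, those called lower in H3.3 K9R numbered 1 (Hsp27), those called higher in combined K9R numbered 0, and the FAIRE regions called in H3.3B-K9R numbered 0. Requiring an absolute log2 fold change of at least 1 as well left 1 lower in H3.3 K9R and 0 higher in combined K9R. Matching genes and loci at 80% of the joint span left out Hsp27 and Hsp67Ba, and so 0 members were called lower in canonical K9R and 0 in H3.3 K9R. With the shared control taken out of the error, 2 members, in place of 0, differed between combined and canonical K9R. The share of all loci that differ with this smaller error is not given, so the 2 cannot be set beside it. The control was taken to hold 50% of the smaller squared error. In FAIRE, where it can be computed, its median share was 52.5%. The other 62 of 71 counts under an alternative stayed within 1.5 times the main count, including adjustment over every locus with a p-value, over loci counted 10 or more on average or over arm loci, and centring on the median. Many of these were counts of 0, which a stricter rule cannot change. Differences between mutants were varied only by the smaller error, which cannot weaken them. In the plain difference test, Hsp23 (adjusted p = 0.0436) and the Hsp22 departure (adjusted p = 0.0490) lie above 0.01. Of 108 FAIRE values under an alternative, 1 lost its call, under the stricter threshold, and it belonged to the only region with a call to lose. Of 108 RNA values under an alternative, 5 lost a call, all under the stricter threshold or the minimum fold change. Most of the 108 had no call to lose. Those with 1 were Hsp27 in canonical and H3.3 K9R, Hsp67Ba in H3.3 K9R and Hsp22 in combined K9R. Apart from centring, the alternatives left each fold change as it was, so they could not test its sign. Depth per library is unknown. The size needed for a call was computed from the deposited error at every locus, and what sets that error was not tested.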
